A study of Mus musculus with 10 samples.

Results

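The 8 genes described here encode transcription factors of the melanocyte lineage, measured by RNA sequencing in mouse melanoma cells. They were taken by gene symbol from a list of lineage factors that was drawn up with earlier results of these data known, and all 8 were found among the 77175 entries of the deposited table. All 8 also passed the filter on low counts and were among the 15526 genes tested. They are Mitf (ENSMUSG00000035158), its relatives Tfeb (ENSMUSG00000023990) and Tfe3 (ENSMUSG00000000134), and the lineage factors Sox10 (ENSMUSG00000033006), Pax3 (ENSMUSG00000004872), Lef1 (ENSMUSG00000027985), Tfap2a (ENSMUSG00000021359) and Sox4 (ENSMUSG00000076431).

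Both lines derive from B16-F10, a pigmented mouse melanoma cell line. B16-F10-OVA, called OVA here, has the genotype B16-F10 with pLV[Exp]-Neo-EF1A>{ovalbumin}, a vector in which an EF1A promoter drives ovalbumin, a model antigen. The labels do not say whether the OVA line is 1 clone. The other line is B16-F10 itself, called WT here. Interferon gamma (IFN-γ) was given at 50 ng/ml for 24 h, and the groups are OVA given IFN-γ (3 libraries), OVA untreated (2), WT given IFN-γ (3) and WT untreated (2). The extraction protocol speaks of tissue, whereas the other labels name cultured lines. The labels do not say that the replicates came from separate cultures, so the spread behind each p-value is that between libraries and may be technical. The stated aim of the series was to find out if OVA and WT cells differ in their response to IFN-γ.

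Total counts per library ran from 17728722 to 19642533, and the 10 most abundant genes took 6.07% to 7.18% of them. Levels are given as CPM, counts scaled to library size, after TMM scaling, a correction for library composition. Irf1, a transcription factor that interferon induces, was at 638 to 727 CPM in the 6 libraries given IFN-γ and at 10.3 to 11.0 CPM in the 4 untreated ones. All 7 melanocyte markers (Pmel, Mlana, Tyr, Tyrp1, Dct, Slc45a2 and Gpnmb) were present in all 10 libraries, with summed levels of 30301 to 31139 CPM in OVA given IFN-γ, 29696 to 29929 CPM in OVA untreated, 30974 to 31483 CPM in WT given IFN-γ and 29374 to 29548 CPM in WT untreated. For T cells, 3 of 7 markers had no counts and their sum reached 0.329 CPM. For keratinocytes, 4 of 6 had none and the sum reached 1.57 CPM. For muscle, 4 of 5 had none. The remaining one, Des, was at 4.93 to 5.68 CPM in OVA given IFN-γ, 6.74 to 6.98 CPM in OVA untreated, 6.23 to 7.22 CPM in WT given IFN-γ and 7.84 to 9.11 CPM in WT untreated, and was called lower with IFN-γ in both lines (log2 changes −0.35 in OVA and −0.34 in WT, adjusted p = 0.0310 and 0.0282 by edgeR). The 6 macrophage markers, mostly through Cd68, summed to 3.30 to 3.68 CPM in OVA given IFN-γ, 2.16 to 2.96 CPM in OVA untreated, 3.46 to 5.04 CPM in WT given IFN-γ and 2.37 to 3.25 CPM in WT untreated. The 6 fibroblast markers summed to 4.18 to 5.96 CPM in OVA given IFN-γ, 6.44 to 6.79 CPM in OVA untreated, 4.71 to 5.24 CPM in WT given IFN-γ and 6.33 to 7.67 CPM in WT untreated. The 6 Schwann cell markers, with Mbp, S100b and Gfap among those above 1 CPM, summed to 92.8 to 99.3 CPM in OVA given IFN-γ, 101 to 102 CPM in OVA untreated, 86.4 to 93.9 CPM in WT given IFN-γ and 86.3 to 87.8 CPM in WT untreated. The part of these markers in the results was not tested.

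MITF is the basic helix-loop-helix leucine zipper factor that melanocytes depend on for their formation, survival and pigment. TFEB and TFE3 belong to the same family, can pair with MITF on E-box sequences, and are best known for driving lysosome and autophagy genes when the kinase mTORC1 is off. Upstream, SOX10 and PAX3 from the neural crest and LEF1, which works with beta-catenin in Wnt signalling, are known to act on the melanocyte-specific M promoter of Mitf, and cAMP acts there through CREB. TFAP2A works beside MITF at many pigment genes. SOX4 is a factor of progenitor cells in several lineages. Melanomas with low MITF are known for a dedifferentiated, invasive state, and inflammatory signals are known to be able to shift cells along that axis.

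Mitf has several alternative first exons, and the melanocyte M promoter is the most downstream of them. A 300 base window, 250 bases before a start site to 50 after it, was taken from RefSeq (GRCm38.p6) for 3 Mitf start sites, of which both that held a searched motif are shown because Mitf is the factor whose level changed most surely in these data. The windows lie on the plus strand at chr6:97991533-97991832 (the most downstream) and chr6:97929567-97929866. The counts per gene do not tell these start sites apart. Capitals mark motif matches.
Mitf, most downstream window: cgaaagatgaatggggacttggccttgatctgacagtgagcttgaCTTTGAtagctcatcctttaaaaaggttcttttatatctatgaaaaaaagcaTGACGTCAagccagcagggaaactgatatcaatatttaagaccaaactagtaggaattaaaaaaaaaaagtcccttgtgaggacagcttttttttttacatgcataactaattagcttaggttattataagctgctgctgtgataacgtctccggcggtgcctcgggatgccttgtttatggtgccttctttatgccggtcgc
Mitf, middle window: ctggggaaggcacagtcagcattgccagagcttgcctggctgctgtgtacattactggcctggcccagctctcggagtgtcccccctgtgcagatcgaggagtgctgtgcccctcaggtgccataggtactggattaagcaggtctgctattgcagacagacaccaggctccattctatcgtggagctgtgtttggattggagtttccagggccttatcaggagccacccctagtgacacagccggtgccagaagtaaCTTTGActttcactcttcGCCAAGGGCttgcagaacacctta
The most downstream window holds CTTTGA, the core letters of a LEF1 and TCF site from position −205 relative to the start, and TGACGTCA, the full cAMP response element, from position −153. TGACGTCA was added to the search after the sequence had been read. The middle window holds CTTTGA from base 9 and GCCNNNGGC, the form bound by TFAP2A, from base 27 after the start. Over all 32851 windows of this length, searched on both strands, CTTTGA was present in 16% of windows, GCCNNNGGC in 16.6% and TGACGTCA in 1.79%. The third Mitf window held none of the searched motifs. Neither TTCNNNGAA (a STAT site, in 8.3% of all windows) nor GAAANNGAA (an IRF site, in 8.56%) was in any of the 3 Mitf windows, nor were the E-boxes CACGTG (7.15%) and CATGTG (14.2%) or the letters of SOX sites, which were searched as ACAAAG (present in 18.7% of all windows) and as ACAATG (12.6%). Windows were also found for Lef1 (4), Tfeb (3), Tfap2a (2), Tfe3 (2) and Sox4 (1), but for neither Sox10 nor Pax3. Of these, only the most downstream Lef1 window held a searched motif, with the E-box CACGTG, both SOX motifs once each and the LEF1 and TCF motif at 2 places. The start site of that window lay 42438 bases from the nearest Lef1 start in the GENCODE M21 annotation. The other Lef1 windows, which held none of the motifs, had start sites at most 174 bases from an annotated one.

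Levels can be compared between genes only per length, here as CPM per kilobase of exon in the GENCODE M21 annotation. Sox10 and Mitf were the most abundant of the 8, Pax3, Tfap2a and Sox4 were intermediate, Tfe3 and Tfeb were low and Lef1 was barely detected. In OVA cells given IFN-γ, the levels per kilobase were 159 ± 1.23 for Sox10, 133 ± 1.16 for Mitf, 36.3 ± 0.957 for Pax3, 22.2 ± 0.41 for Tfap2a, 14.3 ± 0.482 for Sox4, 4.96 ± 0.083 for Tfe3, 3.74 ± 0.289 for Tfeb and 0.0828 ± 0.0229 for Lef1 (mean ± SD, n = 3). In WT untreated cells they were 135 ± 4.3 for Sox10, 92.4 ± 2.08 for Mitf, 34.9 ± 0.647 for Pax3, 23.8 ± 0.524 for Tfap2a, 12.9 ± 0.229 for Sox4, 4.93 ± 0.00368 for Tfe3, 3.46 ± 0.187 for Tfeb and 0.0538 ± 0.00503 for Lef1 (n = 2). The order was the same in all 4 groups, and neighbours in it lay farther apart than their SDs. It depends in 2 places on the gene model. With the length of the longest transcript in place of all exons, Tfeb stood above Tfe3 in all 4 groups, and Mitf stood above Sox10 in WT given IFN-γ (171 against 169 per kilobase).

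**Figure D1:**
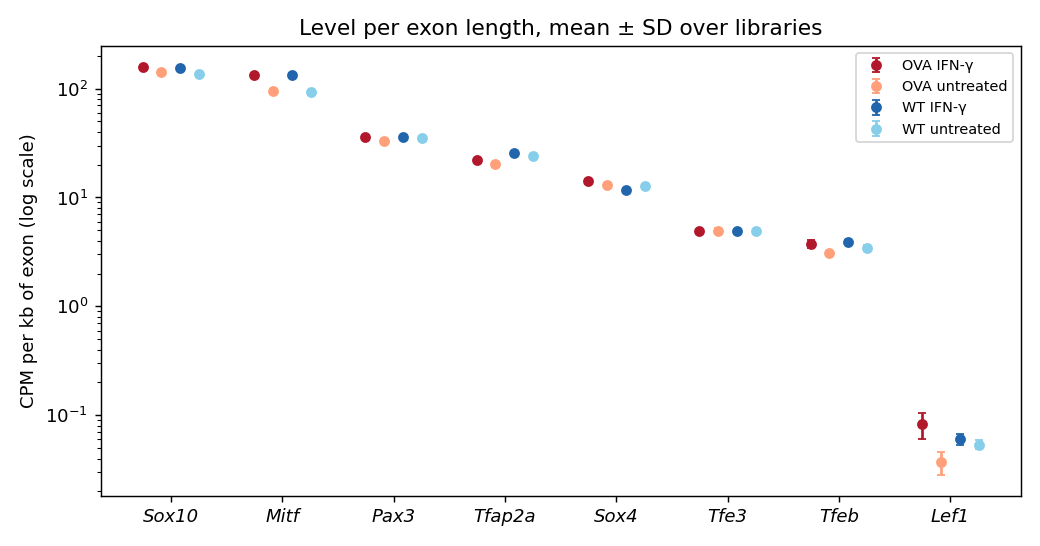
Level of each factor per kilobase of exon on a log axis, as mean ± SD over 3 libraries given IFN-γ or 2 untreated ones, in OVA and WT cells. Sox10 and Mitf lie highest, between 92.4 and 159 CPM per kilobase, and Lef1 lies lowest, under 0.1.

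IFN-γ raised Mitf in both lines. In OVA cells Mitf had 821, 831 and 817 CPM with IFN-γ, against 584 and 594 CPM untreated. In WT cells it had 850.4, 842 and 810.5 CPM with IFN-γ, against 582 and 564 CPM untreated. Every treated library lay above every untreated one, and the treated libraries of the 2 lines overlapped. The log2 fold change was 0.48 in OVA (SE 0.029, adjusted p = 4.13e-10) and 0.54 in WT (SE 0.029, adjusted p = 8.98e-11, edgeR), that is 1.40-fold and 1.46-fold. Changes of at least this size were not rare, since Mitf ranked 4281 of 15526 genes by the size of its change in OVA and 3377 in WT.

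Tfeb, the lysosomal regulator, was higher with IFN-γ in OVA cells. It had 22.7, 21.4 and 19.5 CPM with IFN-γ, against 18 and 17 CPM untreated, with no overlap (log2 fold change 0.28, SE 0.077, adjusted p = 0.00663). That call was lost without OVA untreated replicate 2 (adjusted p = 0.0709). In WT cells Tfeb had 21.4, 21.7 and 23.1 CPM with IFN-γ, against 20.4 and 18.9 CPM untreated. The WT groups did not overlap either, but the change of 0.17 (SE 0.075, adjusted p = 0.0764) did not pass.

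Tfe3, which shares the nutrient-sensing control of Tfeb, lay at 44.4 to 47.4 CPM in all 10 libraries. It had 46.7, 45.8 and 45.2 CPM in OVA with IFN-γ, against 47.4 and 44.5 CPM untreated, and 46.3, 44.4 and 45.6 CPM in WT with IFN-γ, against 45.6 and 45.7 CPM untreated. The groups overlapped in both lines. The 95% interval of its log2 change was −0.10 to 0.099 in OVA and −0.11 to 0.093 in WT, so a change as large as that of Mitf lies outside it in both lines. As a share of the summed level per kilobase of Mitf, Tfe3, Tfeb and Tfec, Mitf made up 93.6% to 94.1% in the 3 OVA libraries given IFN-γ, against 91.9% and 92.5% untreated, and 93.6% to 94.0% in the 3 WT libraries given IFN-γ, against 91.7% in both untreated ones. Tfec, the fourth member of the family, had no counts except 2 in OVA given IFN-γ replicate 3. These shares depend on the gene model. By all exons, OVA cells given IFN-γ had 133 per kilobase for Mitf, 4.96 for Tfe3 and 3.74 for Tfeb. By the longest transcript, they had 169 for Mitf, 7.26 for Tfe3 and 9.05 for Tfeb.

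**Figure D2:**
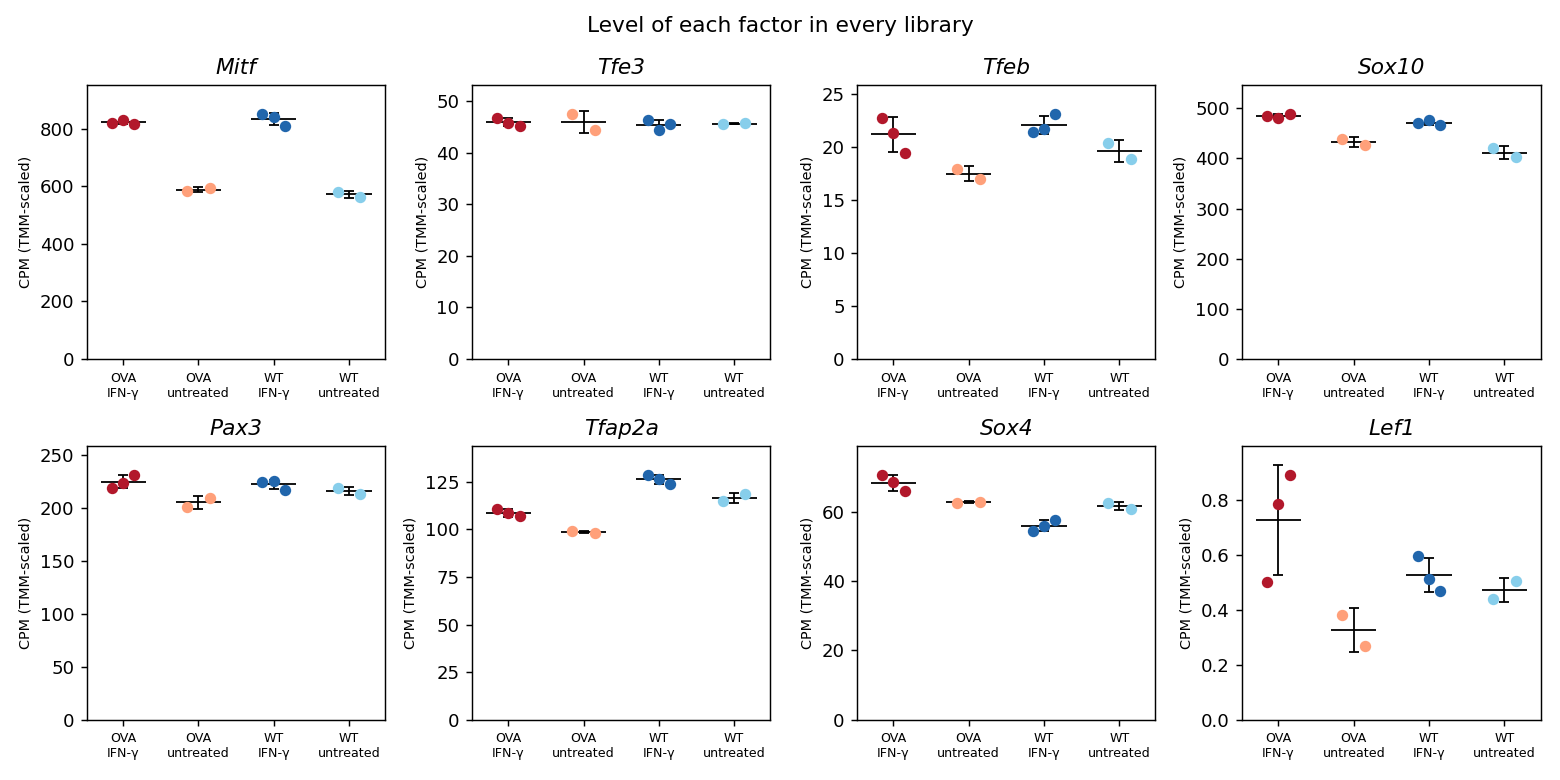
Level of each factor in CPM in every library, for OVA given IFN-γ, OVA untreated, WT given IFN-γ and WT untreated. Points are libraries, horizontal bars are means and whiskers are SDs. Mitf is higher in all 6 libraries given IFN-γ than in the 4 untreated ones, and Sox4 lies above its untreated level in OVA and below it in WT.

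Sox10, the neural crest factor upstream of Mitf, rose by a smaller fold. In OVA cells it had 485, 480.4 and 488 CPM with IFN-γ, against 439 and 426 CPM untreated. In WT cells it had 469.9, 476 and 467 CPM with IFN-γ, against 421 and 402 CPM untreated. No groups overlapped, and the log2 fold change was 0.16 in OVA (SE 0.029, adjusted p = 1.79e-04) and 0.19 in WT (SE 0.029, adjusted p = 3.63e-05). The calls of Sox10 and of Mitf held in both lines under every alternative run, which included other normalizations, tools and filters and each library left out in turn.

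Pax3, which acts with SOX10 on the Mitf promoter, had 219, 224 and 231 CPM in OVA with IFN-γ, against 201 and 209.6 CPM untreated. These groups did not overlap, and the log2 change of 0.13 (SE 0.034, adjusted p = 0.00437) passed, though not without OVA untreated replicate 1 (adjusted p = 0.130). In WT cells it had 224, 225 and 217 CPM with IFN-γ, against 219 and 213 CPM untreated, which overlap (0.040, SE 0.034, adjusted p = 0.371).

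Lef1, the nuclear partner of beta-catenin, was near the limit of detection, with 9, 14 and 16 counts in OVA given IFN-γ, against 7 and 5 counts untreated, and with 11, 10 and 9 counts in WT given IFN-γ, against 8 and 9 counts untreated. In CPM the OVA groups did not overlap, and the WT groups did. The log2 change in OVA was 1.14 with a wide 95% interval of 0.17 to 2.11 (adjusted p = 0.0501), and it passed without OVA IFN-γ replicate 1 (1.33, adjusted p = 0.0287). In WT it was 0.15, with an interval of −0.79 to 1.10 (adjusted p = 0.807). At this depth neither a moderate rise nor its absence can be shown in WT. Exons of Lef1 overlap the antisense gene Gm43352, which had 2 counts in all.

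Tfap2a, the partner of MITF at pigment genes, rose slightly in both lines. In OVA cells it had 111, 109 and 107 CPM with IFN-γ, against 99.3 and 98.4 CPM untreated (log2 change 0.14, SE 0.036, adjusted p = 0.00404). In WT cells it had 129, 126 and 124 CPM with IFN-γ, against 115 and 118 CPM untreated (0.11, SE 0.035, adjusted p = 0.0130). Neither pair overlapped. The WT call was lost with DESeq2 (adjusted p = 0.0868), with scaling by library totals only (0.0661) and without WT untreated replicate 1 (0.121) or WT IFN-γ replicate 1 (0.0708). Exons of Tfap2a overlap 3 antisense genes, Gm26688, Gm47061 and Gm47067, which had 395, 473 and 5 counts in all 10 libraries together, against 20850 for Tfap2a. The labels do not say that the libraries are stranded, so reads from the overlaps cannot be assigned to a strand.

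Sox4, the progenitor factor, was the one gene of the 8 whose changes pointed in opposite directions in the 2 lines. In OVA cells it had 70.6, 68.5 and 66.0 CPM with IFN-γ, against 62.6 and 63.0 CPM untreated, all treated libraries being higher (log2 change 0.12, SE 0.044, adjusted p = 0.0271). In WT cells it had 54.6, 56.0 and 57.6 CPM with IFN-γ, against 62.5 and 60.9 CPM untreated, all treated libraries being lower (−0.14, SE 0.045, adjusted p = 0.0182). Both calls were fragile. In OVA it was lost with DESeq2 (adjusted p = 0.136) and without 1 of the OVA libraries, untreated replicate 1 (0.168) or 2 (0.0941) or treated replicate 1 (0.131) or 2 (0.0813). In WT it was lost with DESeq2 (0.0536), with no filter (0.0656) and without WT untreated replicate 1 (0.143) or replicate 2 (0.0523). The single exon of Sox4 overlaps the opposite-strand gene Gm26735 over 2616 bases. That gene had no entry under its identifier in the deposited table. Reads from this overlap cannot be assigned to a strand either.

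By edgeR at an adjusted p under 0.05, 6 of the 8 factors rose and none fell with IFN-γ in OVA cells, where 48.8% of all tested genes were called, 25.9% higher and 22.9% lower. In WT cells 3 rose and 1 fell, where 44.2% of all tested genes were called, 24.5% higher and 19.7% lower. The treated and untreated libraries did not overlap for 7 of the 8 in OVA, against 65.6% of all tested genes, and for 5 of the 8 in WT, against 62% of all. The median log2 change of the 8 was 0.15 in OVA and 0.13 in WT, beside medians of 0.0018 and 0.011 over all tested genes. Without regard to sign, the median change over all genes was 0.26 in OVA and 0.23 in WT, so most of the 8 moved less than a typical gene. In bulk samples, fewer cells of a type and less RNA per cell cannot be told apart. With DESeq2 the number of called factors was 5 in OVA and 2 in WT.

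**Figure D3:**
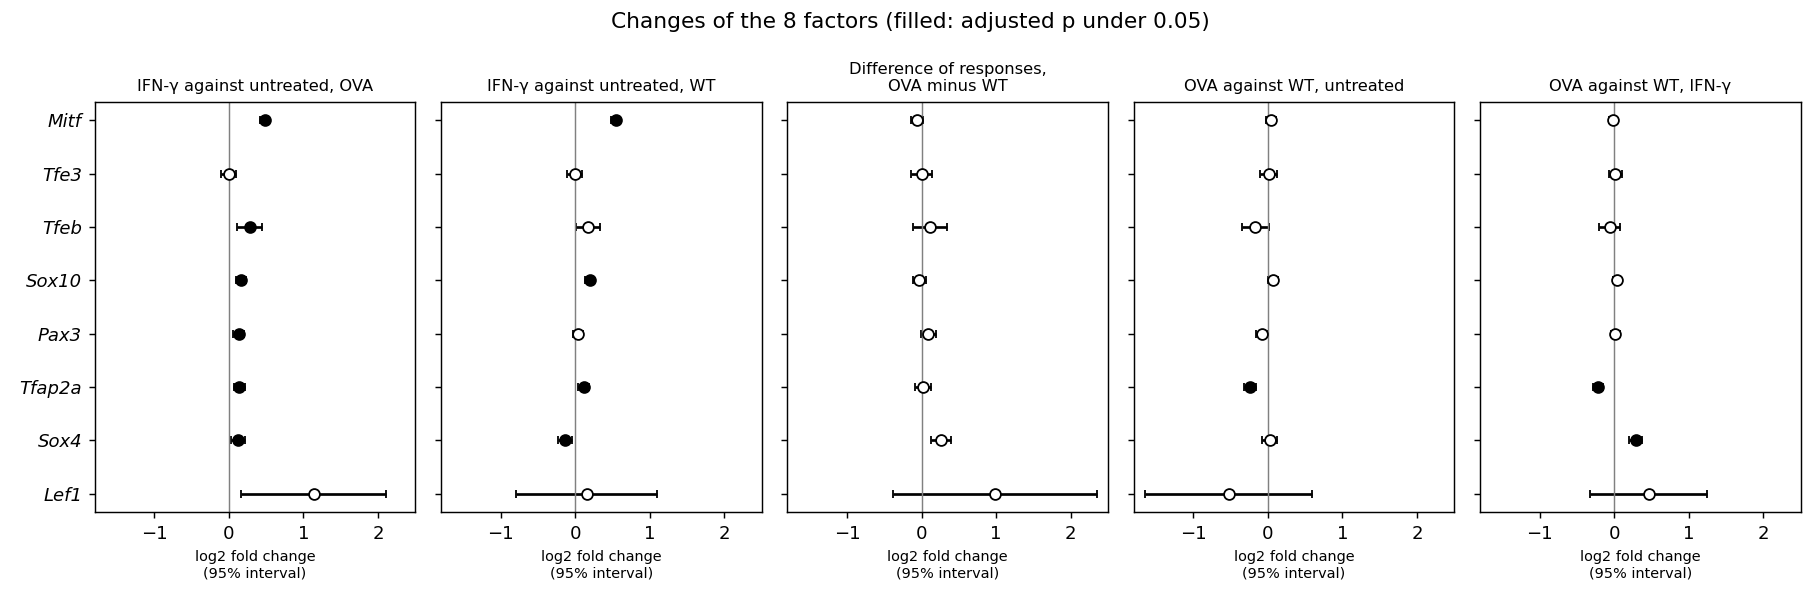
Log2 fold change of each factor with its 95% interval in the 5 comparisons, IFN-γ against untreated in OVA and in WT, the difference of these responses, and OVA against WT untreated and with IFN-γ. Filled points passed an adjusted p under 0.05. Mitf stands at 0.48 and 0.54 under IFN-γ, Tfap2a lies below 0 and Sox4 above 0 between the treated lines, and the interval of Lef1 is the widest throughout.

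The response of OVA minus that of WT passed for none of the 8, where 0.341% of all tested genes (53 of 15526) were called. At an unadjusted p under 0.05, 1 of the 8 passed, and this was Sox4. By edgeR its response differed by 0.26 log2 units (SE 0.062, 95% interval 0.13 to 0.39, unadjusted p = 6.54e-04, adjusted p = 0.112). With no filter on low counts it was called (adjusted p = 0.0343). DESeq2 and limma-voom also called none of the 8, but DESeq2 gave no adjusted p for Tfe3, Tfeb and Lef1. For Mitf the difference was −0.060 with an interval of −0.15 to 0.027, for Sox10 −0.031 (−0.12 to 0.056), for Tfap2a 0.024 (−0.081 to 0.13), for Pax3 0.091 (−0.011 to 0.19), for Tfeb 0.11 (−0.12 to 0.34), for Tfe3 0.0060 (−0.13 to 0.15) and for Lef1 0.99 (−0.38 to 2.36). These intervals bound the differences and do not show that the lines respond alike. With scaling by library totals only, the share of called genes whose difference (OVA minus WT) was positive was 34.1%, beside 22.6% with TMM factors. A positive difference can be a larger rise or a smaller fall in OVA, or, as in the values of Sox4, a rise in OVA beside a fall in WT.

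Between the lines, Tfap2a was lower in OVA and Sox4 was higher in OVA once IFN-γ was present. Tfap2a had 99.3 and 98.4 CPM in untreated OVA, against 115 and 118 CPM in untreated WT (log2 difference −0.24, SE 0.039, adjusted p = 0.00120). With IFN-γ it had 111, 109 and 107 CPM in OVA, against 129, 126 and 124 CPM in WT (−0.22, SE 0.031, adjusted p = 1.76e-04). Sox4 had 62.6 and 63.0 CPM in untreated OVA, against 62.5 and 60.9 CPM in untreated WT, a difference of 0.024 (SE 0.048, adjusted p = 0.858). With IFN-γ it had 70.6, 68.5 and 66.0 CPM in OVA, against 54.6, 56.0 and 57.6 CPM in WT, all OVA libraries being higher (0.29, SE 0.039, adjusted p = 1.09e-04). These 3 called differences passed under every alternative run.

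Of the 8 factors, 1 was lower and none higher in untreated OVA, where 5.53% of all tested genes were called, 2.98% higher and 2.55% lower, and 1 was higher and 1 lower in OVA given IFN-γ, where 14.4% were called, 6.36% higher and 7.99% lower. The lines did not overlap for 7 of the 8 untreated, with 2 libraries each, against 49.7% of all tested genes, and for 3 of the 8 with IFN-γ, against 31.1% of all. Mitf differed between the lines by 0.041 untreated (SE 0.032, adjusted p = 0.549) and by −0.019 with IFN-γ (SE 0.026, adjusted p = 0.675). Scaling by library totals only turned the IFN-γ value of Mitf to 0.0044. That scaling also moved the share of called genes that were higher in treated OVA to 60.0%, beside 44.3% with TMM factors, and the calls of Tfap2a and Sox4 kept their directions.

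The genes whose levels across the 10 libraries ran closest to each factor were found by the root mean square difference of centred log2 CPM over 10356 genes (10357 for Lef1). For Mitf these were Pphln1, Actr3, which encodes a subunit of the actin-nucleating Arp2/3 complex, and Tmbim6, at differences of 0.032, 0.033 and 0.034. Actr3, for example, changed by 0.54 with IFN-γ in both lines. For Sox4 they were Traf2, a signalling adaptor of TNF receptors, Iscu, a scaffold for iron-sulfur clusters, and Mon1a, at 0.056, 0.058 and 0.064. For Tfap2a they were Sgcb, Pcnx1 and Rnf19a (0.034 to 0.043), and for Sox10 Ptp4a1 (ENSMUSG00000117310), Commd8 and Caprin1 (0.021 to 0.022). For Pax3 they were Phf14, Kansl2 and Mtbp (0.019 to 0.030), and for Tfe3 Rap2a, Foxj3 and Specc1l (0.018 to 0.024). The likeness was looser for Tfeb, with Bbs12, B4galt5 and Trappc14 (0.050 to 0.052), and for Lef1, with Nudt18, Gtpbp6 and Phf7 (0.19 to 0.20), genes that were themselves far more abundant than Lef1.

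Around these factors, 242 tested genes from 8 pathway lists were examined, of which 80 rose and 87 fell with IFN-γ in OVA, and 84 rose and 76 fell in WT. These are 33.1% higher and 36.0% lower in OVA, beside 25.9% and 22.9% of all tested genes, and 34.7% higher and 31.4% lower in WT, beside 24.5% and 19.7%. The median log2 change of all tested genes was 0.0018 in OVA and 0.011 in WT. A gene can be in more than 1 list. The lists were chosen with earlier results of these data known. A share above that of all tested genes is therefore no test of a pathway, here or in the lists below. For a difference of response 2 of the 242 passed (0.826%, beside 0.341% of all tested genes), and these are given with their lists.

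Among 23 other neural crest and melanocyte transcription factors, 10 rose and 11 fell in OVA (median −0.15), and 9 rose and 10 fell in WT (median −0.055). These are 43.5% higher and 47.8% lower in OVA, beside 25.9% and 22.9% of all tested genes. For WT they are 39.1% and 43.5%, beside 24.5% and 19.7%. Usf1, an E-box factor known for the tanning response, rose to 57.4 ± 0.798 CPM in OVA with IFN-γ, against 23.8 ± 0.905 CPM untreated, and to 53.5 ± 2.05 CPM in WT with IFN-γ, against 22.7 ± 0.547 CPM untreated (log2 changes 1.27 and 1.23). Id2 and Id3, which encode inhibitors of basic helix-loop-helix factors, rose by 0.90 and 1.29 in OVA and by 0.93 and 0.85 in WT. Snai2, a neural crest factor, rose by 0.90 in OVA and 0.73 in WT. Sox5, known in mouse to counter SOX10, was at 16.1 ± 1.58 CPM in OVA with IFN-γ, against 27.3 ± 1.55 CPM untreated, and at 16.2 ± 1.85 CPM in WT with IFN-γ, against 34.4 ± 2.05 CPM untreated (−0.76 and −1.08, both called).

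Genes known as MITF targets in melanocytes moved both ways, 14 higher and 15 lower of 38 in OVA (median −0.037) and 15 higher and 13 lower in WT (median 0.017). The shares were 36.8% higher and 39.5% lower in OVA, beside 25.9% and 22.9% of all tested genes. For WT they were 39.5% and 34.2%, beside 24.5% and 19.7%. The sialyltransferase gene St3gal6 rose to 221 ± 5.7 CPM in OVA with IFN-γ, against 148 ± 0.594 CPM untreated, a log2 change of 0.58, and it rose by 0.64 in WT. Trpm1, a channel gene whose intron hosts miR-211, rose by 0.42 in OVA and 0.56 in WT. Gpr143, which encodes a melanosome receptor, rose by 0.54 in OVA and 0.41 in WT. The potassium channel gene Kcnj13 rose to 10.3 ± 0.245 CPM in OVA with IFN-γ, against 2.94 ± 0.257 CPM untreated, and to 3.79 ± 0.313 CPM in WT with IFN-γ, against 0.751 ± 0.126 CPM untreated (1.81 and 2.33). Zfp704 was at −0.64 in OVA and −0.61 in WT, and the amino acid transporter gene Slc7a5 at −0.39 in OVA and −0.45 in WT (all adjusted p under 0.05). Between the lines, Trpm1 had 388 ± 12.1 CPM in OVA with IFN-γ, against 263 ± 5.63 CPM in WT with IFN-γ, and the difference was 0.70 untreated and 0.56 with IFN-γ. Ppargc1a, a regulator of mitochondria, was lower in OVA (−0.43 untreated and −0.26 with IFN-γ).

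Of 55 lysosome and autophagy genes with CLEAR elements, the class that TFEB and TFE3 drive, 27 rose and 11 fell in OVA (median 0.12), and 24 rose and 10 fell in WT (median 0.061). The shares that rose, 49.1% in OVA and 43.6% in WT, stand beside 25.9% and 24.5% of all tested genes. The shares that fell, 20% and 18.2%, stand beside 22.9% and 19.7%. The alpha-galactosidase gene Gla rose to 28.4 ± 0.894 CPM in OVA with IFN-γ, against 14.9 ± 0.56 CPM untreated, and to 28.1 ± 0.787 CPM in WT with IFN-γ, against 12.5 ± 0.0689 CPM untreated (0.94 and 1.17). The proton pump subunit gene Atp6v1b2 rose by 0.69 and 0.67, and Tmem192 by 0.67 and 0.77. The protease gene Ctsb rose by 0.67 in OVA and 0.55 in WT. Ctss, a cathepsin gene of antigen presentation singled out after its values were seen, had no counts in either untreated group and 99 and 97 counts with IFN-γ, so it was at least 22.6-fold higher in OVA and at least 20.4-fold higher in WT against a floor of 3 counts over the untreated group. Gabarapl1, an autophagosome gene, was the list's one difference of response, 0.26 larger in OVA (SE 0.053, adjusted p = 0.0424). Between the lines the autophagy receptor gene Sqstm1 was higher in OVA, with 941 ± 9.25 CPM in OVA and 778 ± 6.59 CPM in WT with IFN-γ (0.28), and it differed by 0.24 untreated.

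Of 40 genes of the nutrient-sensing machinery that governs where TFEB, TFE3 and MITF reside in the cell, 12 rose and 9 fell in OVA (median −0.030), and 13 rose and 7 fell in WT (median 0.027). Thus 30% were higher and 22.5% lower in OVA, beside 25.9% and 22.9% of all tested genes. For WT these shares were 32.5% and 17.5%, beside 24.5% and 19.7%. Deptor, an inhibitor of mTOR, rose to 181 ± 2.5 CPM in OVA with IFN-γ, against 94.3 ± 4.11 CPM untreated, and to 197 ± 6.99 CPM in WT with IFN-γ, against 98.5 ± 0.723 CPM untreated (0.94 and 1.00). Rragd, a Rag GTPase gene that MITF family factors are known to induce, fell in both lines (−0.48 and −0.51). Akt1 (−0.36 in OVA and −0.31 in WT) and Gsk3b (−0.35 and −0.16) also fell in both. Flcn, which encodes the Rag regulator folliculin, was higher in OVA than in WT, by 0.18 untreated and 0.20 with IFN-γ.

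Receptors and kinases upstream of Mitf counted 1 higher and 14 lower of 26 in OVA (median −0.14) and 3 higher and 11 lower in WT (median −0.046). The shares that fell, 53.8% in OVA and 42.3% in WT, stand beside 22.9% and 19.7% of all tested genes, and the shares that rose, 3.85% and 11.5%, beside 25.9% and 24.5%. Kit, the receptor for stem cell factor, fell to 4.57 ± 1.01 CPM in OVA with IFN-γ, against 9.63 ± 0.00903 CPM untreated, and to 4.58 ± 0.353 CPM in WT with IFN-γ, against 9.26 ± 0.181 CPM untreated (−1.07 and −1.01). The kinase gene Rps6ka1 was at −0.78 in both lines, and Prkar2b, a regulatory subunit of the cAMP-dependent kinase, at −0.70 and −0.64 (all called). Map2k1 rose by 0.34 in OVA and 0.39 in WT. Mc1r, the melanocortin receptor that raises cAMP, was lower in OVA than in WT (−0.25 untreated and −0.26 with IFN-γ).

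**Figure D4:**
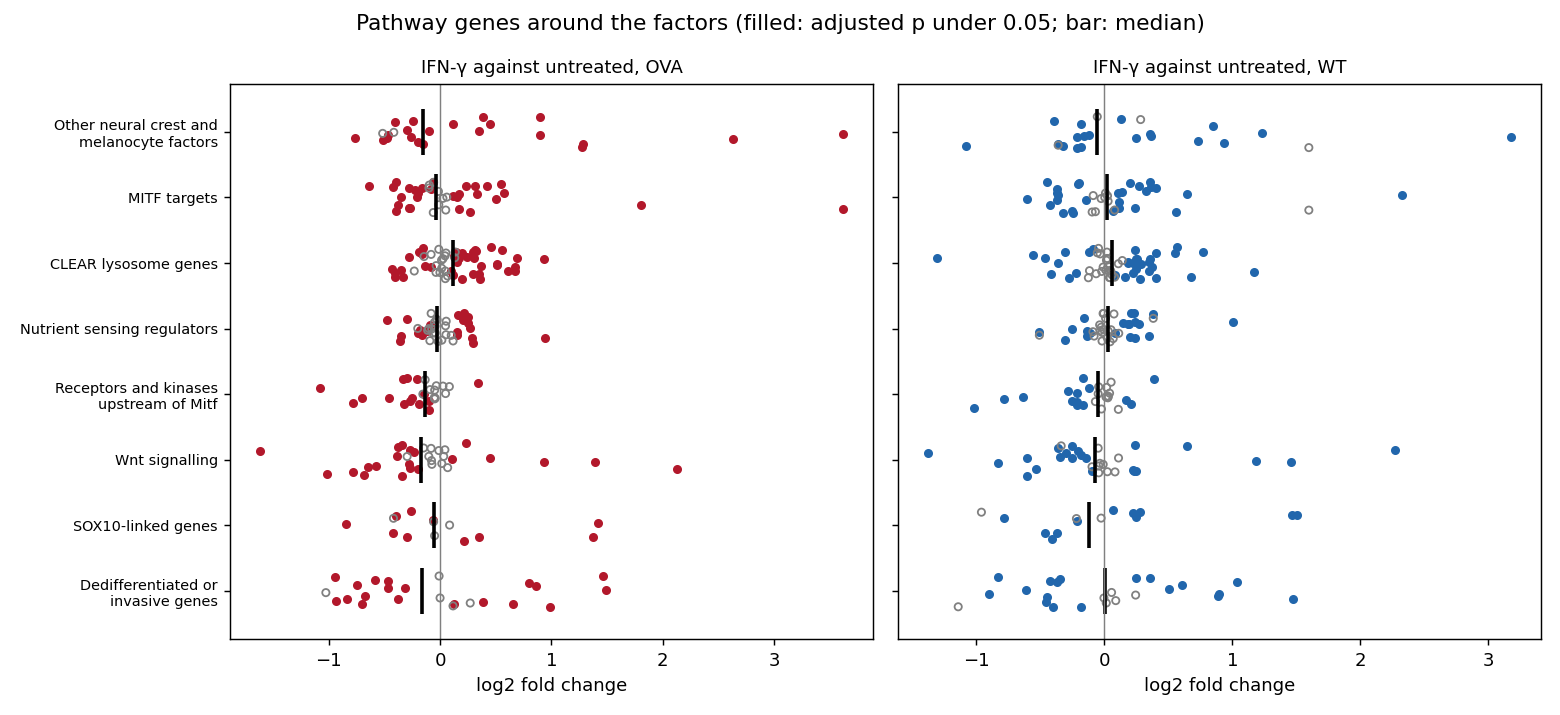
Log2 fold change with IFN-γ of every tested gene in the 8 pathway lists, in OVA and in WT. Filled points passed an adjusted p under 0.05, open points did not, and bars are list medians. Ctss, with no untreated counts, is counted in the median and not drawn. All list medians lie between −0.17 and 0.12.

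In Wnt signalling, the pathway LEF1 serves, 6 of 32 genes rose and 15 fell in OVA (median −0.17), and 8 rose and 14 fell in WT (median −0.070). The shares that fell were 46.9% in OVA and 43.8% in WT, beside 22.9% and 19.7% of all tested genes, and the shares that rose were 18.8% and 25%, beside 25.9% and 24.5%. Tcf7, which encodes TCF1, a close relative of LEF1, rose to 20.5 ± 1.41 CPM in OVA with IFN-γ, against 4.68 ± 0.35 CPM untreated, and to 27.7 ± 0.856 CPM in WT with IFN-γ, against 5.73 ± 0.256 CPM untreated (2.13 and 2.27). Dkk3 rose by 1.39 and 1.46, and Axin2, a feedback inhibitor that the pathway induces, rose by 0.94 in OVA and 1.18 in WT. Tcf7l1, another relative of LEF1, was at −1.01 and −0.83, and Ctnnbip1, an inhibitor of beta-catenin, at −1.62 and −1.38 (all called). With IFN-γ, Tcf7 was lower in OVA than in WT (−0.44), and untreated its difference was −0.29 (adjusted p = 0.270 by edgeR). The receptor gene Fzd6 was higher in OVA, by 0.44 untreated and 0.39 with IFN-γ.

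Of 14 genes that SOX10 is known to bind or drive, 4 rose and 6 fell in OVA (median −0.059), and 6 rose and 5 fell in WT (median −0.12). These are 28.6% higher and 42.9% lower in OVA, beside 25.9% and 22.9% of all tested genes. For WT they are 42.9% and 35.7%, beside 24.5% and 19.7%. Gas7 rose to 86.2 ± 3.74 CPM in OVA with IFN-γ, against 33.2 ± 0.604 CPM untreated, and to 98.6 ± 3.52 CPM in WT with IFN-γ, against 34.7 ± 0.119 CPM untreated (1.38 and 1.51). The intermediate filament gene Nes was at −0.85 in OVA and −0.78 in WT, the connexin gene Gjc3 at −0.42 and −0.41, and the tyrosinase gene Tyr at −0.40 and −0.37 (all called).

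Of 24 genes listed for the dedifferentiated or invasive melanoma state, 8 rose and 11 fell in OVA (median −0.16), and 8 rose and 10 fell in WT (median 0.0063). The list also held Cdh1, which was among the keratinocyte or epithelial markers and was not called with IFN-γ in either line. The shares were 33.3% higher and 45.8% lower in OVA, beside 25.9% and 22.9% of all tested genes. For WT they were 33.3% and 41.7%, beside 24.5% and 19.7%. The receptor tyrosine kinase gene Axl rose to 25.7 ± 1.49 CPM in OVA with IFN-γ, against 9.14 ± 0.0723 CPM untreated, and to 23.0 ± 1.29 CPM in WT with IFN-γ, against 8.29 ± 1.26 CPM untreated (1.49 and 1.47). The fibronectin gene Fn1 rose by 0.98 and 0.89. Tead3, which encodes a partner of YAP, was at −0.93 and −0.90, and the growth factor receptor gene Pdgfrb at −0.94 and −0.61 (all called). Ccn1 was the list's one difference of response (−0.76, SE 0.075, adjusted p = 7.69e-05), with 44.3 ± 1.21 CPM in OVA given IFN-γ, against 70.6 ± 1.71 CPM untreated, and 52.4 ± 3.4 CPM in WT given IFN-γ, against 49.3 ± 0.912 CPM untreated. Loxl2, a collagen cross-linking enzyme gene, was lower in OVA than in WT (−0.79 untreated and −1.07 with IFN-γ).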

How the data were processed

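The authors deposited 1 table of raw counts per gene for the 10 libraries, made with HISAT2 2.0.5 and featureCounts 1.6.0 on GRCm39, per the submitters' processing notes. Not given in the sources used here are the annotation, the strand setting and how reads with several matches were handled. The libraries were poly-A selected, per the labels' protocols.

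Tests on the counts used the quasi-likelihood method of edgeR 4.0.16 under R 4.3.3, two-sided, after filterByExpr and TMM scaling, with the 4 groups as means over all 10 samples and p adjusted by Benjamini-Hochberg over 15526 genes at a threshold of 0.05. The code was tested on simulated data. In each of 5 comparisons, treated cells were set against untreated ones per line, these responses against each other, or OVA against WT with and without IFN-γ. Alternatives were RLE factors, DESeq2 1.42.0, limma-voom (limma 3.58.1), all genes unfiltered, a stricter filter of at least 1 CPM in at least 5 samples, only the groups compared, a replicate block and each library left out. Scaling by library totals only was added after seeing the data.

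The members and lists were chosen with earlier results of these data known. Named were the 8 factors, per list and comparison up to 4 called genes with the largest change and at least 5 CPM, and per factor the 3 genes closest in level across samples among genes of at least 5 CPM, of which the text gives a part. Exon lengths came from GENCODE M21, and promoter windows from RefSeq (GRCm38.p6), another build than that of the counts.

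Replicates of a group differed by more than sampling noise (chi-square per degree of freedom 2.09 to 3.75), so none was counted as a repeat of another.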

Additional observations from a re-analysis of the deposited data

Results flagged for a closer look

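Sox4 met the criterion of opposite movement in the 2 lines. Its treated libraries all lay above the untreated ones in OVA (70.6, 68.5 and 66.0 CPM with IFN-γ, against 62.6 and 63.0 CPM untreated) and all below them in WT (54.6, 56.0 and 57.6 CPM with IFN-γ, against 62.5 and 60.9 CPM untreated). The difference itself, 0.263 log2 units (OVA minus WT), was tested and did not pass by edgeR (adjusted p = 0.112). The adjusted p ran from 0.0557 to 0.418 when each library was left out in turn, and was 0.0343 with no filter.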

How the results depend on the processing

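Of 705 values of the 40 changes (8 factors in 5 comparisons) under the alternatives, 670 kept direction and side of the threshold, 15 lost the call, 2 gained it and 18 changed sign. Values without an adjusted p were counted as not called. With DESeq2 these were Tfe3, Tfeb and Lef1 for the difference of responses and Lef1 in both comparisons between lines. No call changed sign. Apart from Mitf between treated lines with library totals only (0.0044), the sign changes with all libraries kept were of Tfe3, in OVA with no filter (0.011) and a replicate block (0.0030), in WT with no filter (0.0043) and between untreated lines with the stricter filter (−0.0046). With each library left out, Tfe3 ran from −0.045 to 0.036 in OVA, −0.033 to 0.0088 in WT, −0.0014 to 0.031 between treated lines, −0.034 to 0.058 between untreated lines and −0.040 to 0.053 for the difference of responses. Pax3 (−0.00048 to 0.035) and Tfeb (−0.11 to 0.0010) between treated lines and Sox10 for the difference (−0.065 to 0.0023) also crossed 0.

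The number of genes called for the difference was 53 with all libraries, 103 with DESeq2, 284 with no filter, 165 with a replicate block and 21 to 107 with 1 library left out. Between treated lines it was 2229, 1454 with DESeq2 and 1431 to 2408 with 1 left out, and between untreated lines 859, 552 and 350 to 1012. Factors called in WT numbered 4, 2 with DESeq2 and 2 to 4 with 1 left out, and for the difference 1 with no filter. In OVA, 6 factors were called, and 5 with DESeq2. The OVA number was not stable to leaving out libraries either. Sox4, Pax3 and Tfeb each lost the call without at least 1 of the OVA libraries. The cause of these shifts was not tested. The deviations of same-numbered libraries from their group means had correlations of −0.072 to 0.035 (13 pairs). In a group of 2 libraries these deviations mirror each other, so the check cannot show whether the numbers pair the libraries. The replicate block changed no call of the 8 factors. Lef1, at 5 to 16 counts a library, did not pass the stricter filter.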
